A study of Mus musculus with 8 samples.

Results

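The serpin family was followed on 56 transcript clusters, the units that Affymetrix MoGene 2.0 ST arrays summarise, of 41345 in the value table. They are the clusters whose platform annotation gives a symbol starting with Serpin in clades A to F, H and I; 54 carry that symbol alone, for 53 genes, and 2 carry it beside another symbol. RNA came from AML12 cells, a mouse hepatocyte line, in 2 groups of 4 arrays: cells stably expressing Zfp125, a zinc finger protein, and cells with the empty vector (EV). Both groups were selected in G418 and kept in control medium. Nothing in the labels tells whether the arrays of a group came from separate cultures or from separately selected lines; the spread behind each p-value may therefore be technical. Zfp125 itself was not analysed here, which leaves the labels unchecked on that gene. Defining hepatocyte markers were present: all 11 measured lay above the median level of all clusters, with Alb, albumin, averaging 12.48 in Zfp125 cells and 12.96 in EV cells.

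Serpins are proteins of a shared fold, most of which trap a serine protease: the protease cuts an exposed loop of the serpin and is then held in a covalent complex. Hepatocytes secrete many of them into plasma, among them inhibitors of neutrophil elastase, thrombin and plasmin, and carriers of hormones that inhibit nothing. Clade A holds secreted inhibitors and carriers, clade B mostly intracellular inhibitors, clades C, D and F the plasma inhibitors of clotting and fibrinolysis with a relative, clade E the inhibitors of plasminogen activators, clade H a collagen chaperone and clade I inhibitors found in nerve and pancreas.

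The genes of alpha-1 antitrypsin, the plasma inhibitor of neutrophil elastase, are printed first because these paralogs lie side by side on chromosome 12 and their clusters had unequal changes. Of the 53 genes, 47 had a promoter window in RefSeq (GRCm38.p6), from upstream of the annotated start to just past it. The stretches below are on the minus strand, and capitals mark the letters GTTAAT, a core of the site bound by the hepatocyte factor HNF1.
Serpina1c: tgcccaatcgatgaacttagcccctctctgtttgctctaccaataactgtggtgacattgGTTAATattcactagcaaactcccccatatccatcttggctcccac
Serpina1a: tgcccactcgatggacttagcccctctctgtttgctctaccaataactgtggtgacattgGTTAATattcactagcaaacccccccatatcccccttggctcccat
Serpina1b: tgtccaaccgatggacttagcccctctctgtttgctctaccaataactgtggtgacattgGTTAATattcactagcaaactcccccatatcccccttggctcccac
Serpina1d: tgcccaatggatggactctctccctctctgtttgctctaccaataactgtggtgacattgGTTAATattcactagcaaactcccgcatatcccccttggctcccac
Serpina1e: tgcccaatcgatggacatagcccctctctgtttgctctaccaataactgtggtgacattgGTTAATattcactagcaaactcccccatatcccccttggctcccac
They lie at chr12:103904932-103905037 for Serpina1c, chr12:103863595-103863700 for Serpina1a, chr12:103738170-103738275 for Serpina1b, chr12:103773604-103773709 for Serpina1d and chr12:103956930-103957035 for Serpina1e. Over the 106 bases compared with Serpina1c, 6 differed in Serpina1a, 5 in Serpina1b, 9 in Serpina1d and 4 in Serpina1e. These letters began 27 bases before the annotated start of Serpina1c, and 21, 26, 16 and 78 bases before those of Serpina1a, Serpina1b, Serpina1d and Serpina1e. Read on both strands, they were in the windows of 9 of 47 serpin genes (19.1%), and in 7.1% of all 32851 windows of the same length. A gene counted if any of its windows held the letters, so its share is not like that of single windows. The 9 include the close copies printed above, and the other 4 genes were Serpina7, Serpinb3d, Serpinb8 and Serpini2. The letters TTCNNNGAA, a STAT element, were in 6 of 47 genes (12.8%) and in 8.3% of all windows. CAAAGTCCA, an HNF4 element, was in 0 of 47 genes and in 0.475% of all windows. The shares of genes and of windows are unlike here too. These motifs do not overlap each other in the printed stretches, and a match is a description of letters only.

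No serpin cluster passed the test over the whole table. By limma's moderated test with Benjamini-Hochberg adjustment over 41345 clusters, at an adjusted p under 0.05, 0 of 56 were lower in Zfp125 cells and 0 were higher, against 0.123% of all clusters called lower and 0.0242% called higher. At an unadjusted p under 0.05, 7 of 56 were lower and 4 higher, against 4.52% and 4.91% of all clusters. A fit of 1 cluster for each of 22180 genes adjusted over fewer tests and estimated the prior variance of the moderated test again. There 2 of 53 serpin genes were called lower and 0 higher, against 0.636% and 0.446% of all genes. Those were Serpinf2 and Serpina1c, whose calls depend on the settings of the fit. With a trended, robust prior over all clusters, Serpinf2 was called (adjusted p = 0.0208, by limma) and Serpina1c was not (0.0531). Changes below are log2 differences, Zfp125 minus EV, followed by the standard error of the fit; means are followed by the SD over 4 arrays in each group.

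The family fell into 19 clusters whose mean over all 8 arrays was above the median of all clusters, 4.34, and 37 below it. Of the 19 brighter clusters, 15 had a change below 0, with a median of -0.11; over all 20672 clusters above the median level, 46.6% were below 0 and the median change was 0.01. The values of the groups did not overlap for 6 of the 19: in 4 every Zfp125 array was below every EV array, and in 2 every Zfp125 array was above. The background was 4.18% lower and 4.86% higher among clusters above the median level, and 3.03% and 3.2% among all clusters. Of the 37 dimmer clusters, 22 had a change below 0 with a median of -0.01, none was without overlap, and the smallest adjusted p was 0.408. Serpinb8, with a mean of 4.34, lay just inside the dividing level and Serpina1f, with 3.90, was the nearest outside it.

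**Figure D1:**
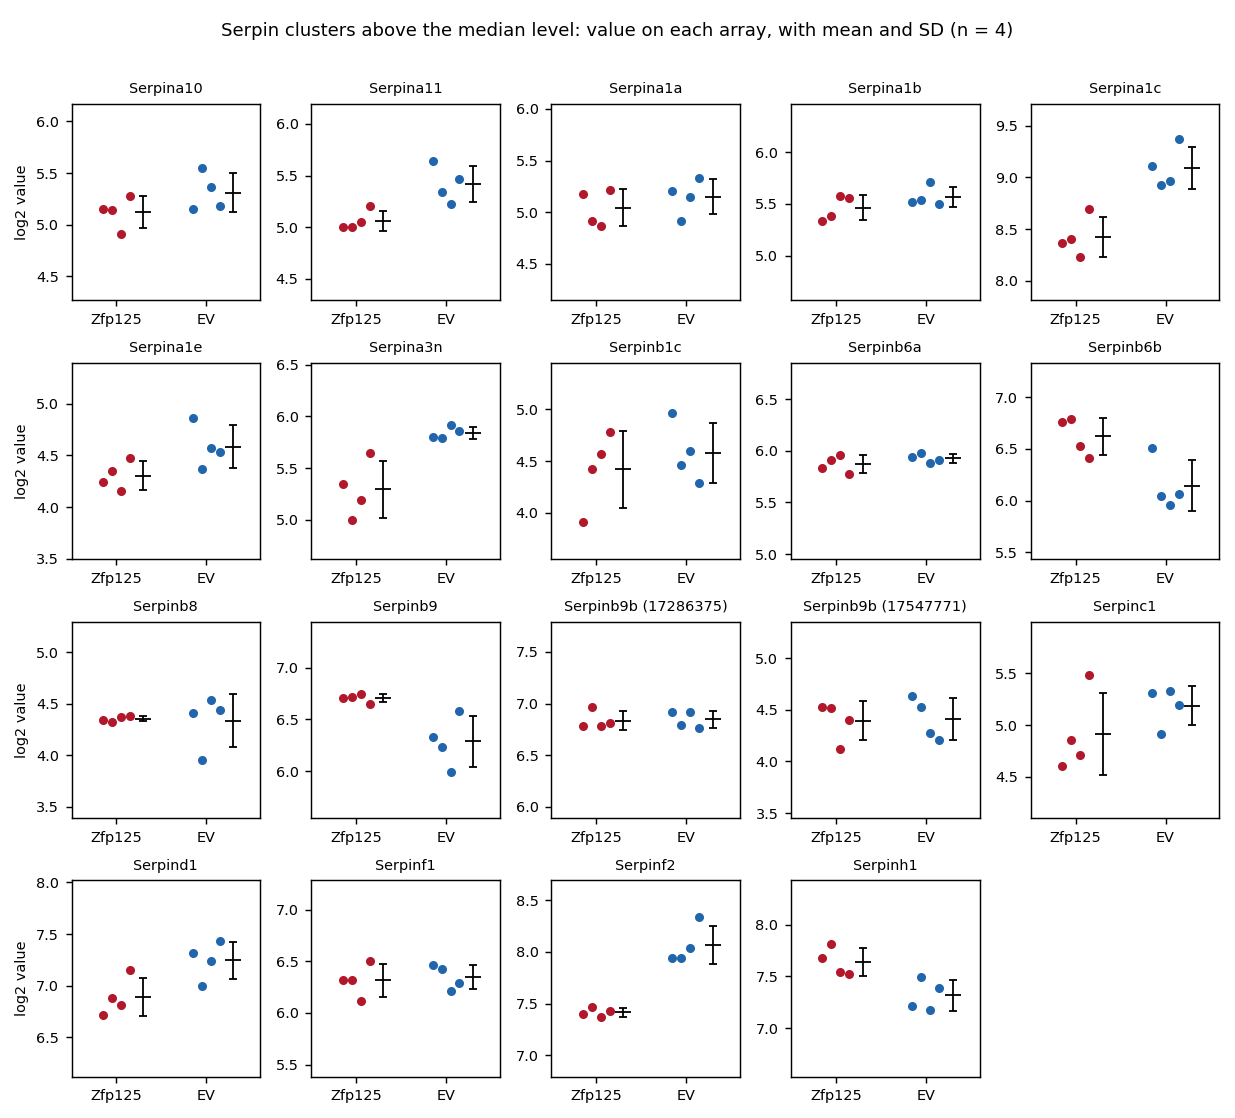
Log2 value (vertical axis, the same span of 1.9 in each panel) of the 19 serpin clusters above the median level on each of 4 Zfp125 arrays (red, left) and 4 EV arrays (blue, right), with mean and SD in black. Serpinf2, Serpina1c, Serpina3n and Serpina11 are lower on every Zfp125 array, and Serpinb9 and Serpinh1 higher.

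Replicate 4 of the Zfp125 cells was often the highest of its group in these genes. Among the 4 Zfp125 arrays it was the highest for 11 of the 19 brighter serpin clusters (57.9%) and the lowest for 4. Over all clusters above the median level it was the highest for 24.2%. In the 15 brighter serpin clusters with a change below 0, a subset picked by direction, it was the highest for 10 (66.7%). Without replicate 4 of the Zfp125 cells, 15 of 19 brighter clusters had a change below 0, and the changes of Serpina1c and Serpina3n were -0.76 and -0.66. Hepatocyte markers leaned the same way as most of the brighter serpins. Of 11 measured markers 1, Fgb, was called lower over all clusters and 6 over genes, against 0.123% of all clusters and 0.636% of all genes. A change below 0 was seen in 10, and the median was -0.49. Their summed level, off the log scale, was 15200 to 15700 in Zfp125 cells and 18400 to 20800 in EV cells, highest of the Zfp125 arrays in replicate 4. None of the marker genes of cholangiocytes (5), stellate cells and fibroblasts (8), endothelium (6) or macrophages and leukocytes (9) was called in either fit. The cholangiocyte markers summed to 1330 to 1560 in Zfp125 cells and 1190 to 1330 in EV cells, while their mean log2 value was 6.21 in Zfp125 cells and 6.22 in EV cells. The brightest, Sox9, weighs most in that sum. It was higher on every Zfp125 array, with a change of 0.28 ± 0.09. Of the 5 markers, 2 had changes below 0, and 2 were below the median level. Of the 8 stellate cell and fibroblast markers 4 were below the median level, as were 3 of the 6 endothelial markers. The former summed to 170 to 195 in Zfp125 cells and 179 to 186 in EV cells. The latter summed to 111 to 127 in Zfp125 cells and 125 to 128 in EV cells. Macrophage and leukocyte markers, 6 of 9 of which were below the median level, summed to 161 to 179 in Zfp125 cells and 154 to 171 in EV cells. The part of any marker in the serpin values was not tested. In bulk RNA, fewer cells of a type and less RNA per cell cannot be told apart.

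The clade A clusters above the median level all leaned one way. All 7 had a change below 0, with a median of -0.28, against 46.6% of all clusters above the median level. In 3 of them the groups did not overlap, all lower, against 4.18% lower and 4.86% higher of all clusters above that level. Of the 13 dimmer clade A clusters, 9 had a change below 0, within a range of -0.32 to 0.11. In the whole clade of 20 clusters, 4 had an unadjusted p under 0.05, all lower, against 4.52% of all clusters lower and 4.91% higher. These medians and counts are descriptions without a test.

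Serpina1c, a mouse gene of alpha-1 antitrypsin, had values of 8.37, 8.41, 8.23 and 8.70 in Zfp125 cells, against 9.11, 8.93, 8.96 and 9.37 in EV cells. The highest Zfp125 array, replicate 4, stayed below the lowest EV array. The change was -0.67 ± 0.13, a level 1.59-fold higher in EV cells (adjusted p = 0.120 over all clusters and 0.0191 over genes, by limma). Serpina1e had 4.24, 4.35, 4.16 and 4.48 in Zfp125 cells and 4.86, 4.37, 4.58 and 4.53 in EV cells. Those groups overlap, and the change was -0.28 ± 0.12 (adjusted p = 0.519). Serpina1a had 5.18, 4.92, 4.86 and 5.22 in Zfp125 cells, against 5.21, 4.92, 5.15 and 5.33 in EV cells, a change of -0.11 ± 0.12. Serpina1b had 5.34, 5.39, 5.58 and 5.56 in Zfp125 cells, against 5.51, 5.54, 5.71 and 5.50 in EV cells, a change of -0.10 ± 0.09. Neither pair of groups was apart. The dim Serpina1d and Serpina1f averaged 2.76 ± 0.22 and 3.81 ± 0.09 in Zfp125 cells, and 3.02 ± 0.17 and 3.99 ± 0.23 in EV cells.

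The within-array difference, Serpina1c minus Serpina1a, averaged 3.38 ± 0.14 in Zfp125 cells and 3.94 ± 0.10 in EV cells. Serpina1c minus Serpina1b averaged 2.96 ± 0.21 in Zfp125 cells and 3.53 ± 0.27 in EV cells. In both cases the groups did not overlap. These and the later within-array differences are of pairs chosen after their values were seen, and are given as descriptions only. An exact permutation test of the 5 pairs was run. Its p-values are not given, since that choice leaves them without their usual meaning. The Serpina1 genes are close copies, the probe sequences behind each cluster were not used here, and how far one paralog's RNA adds to another's cluster was not tested.

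Serpina3n, a mouse relative of human alpha-1 antichymotrypsin that is secreted in the acute phase, had 5.34, 4.996, 5.19 and 5.64 in Zfp125 cells, against 5.80, 5.79, 5.91 and 5.86 in EV cells. The EV arrays lay close together and above all Zfp125 arrays, of which replicate 4 was nearest. The change was -0.55 ± 0.13 (adjusted p = 0.197 over all clusters and 0.0528 over genes, by limma). The other measured Serpina3 genes, Serpina3a, Serpina3b, Serpina3i and Serpina3j, were dim, with changes of 0.03, -0.02, 0.11 and -0.13. Serpina11 had 5.002, 4.999, 5.05 and 5.20 in Zfp125 cells and 5.64, 5.34, 5.23 and 5.47 in EV cells. Its groups were separated by a small gap, with a change of -0.35 ± 0.11 (adjusted p = 0.315).

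Other clade A members showed smaller differences. Serpina10, the inhibitor of clotting factor Xa that works with protein Z, had 5.15, 5.15, 4.91 and 5.28 in Zfp125 cells, against 5.15, 5.55, 5.36 and 5.18 in EV cells (change -0.19 ± 0.12). The hormone carriers were dim and overlapped between groups. Serpina6, corticosteroid-binding globulin, averaged 3.81 ± 0.10 in Zfp125 cells and 3.85 ± 0.27 in EV cells. Serpina7, thyroxine-binding globulin, averaged 3.43 ± 0.10 in Zfp125 cells and 3.75 ± 0.33 in EV cells (change -0.32 ± 0.16, adjusted p = 0.584). Serpina5, the protein C inhibitor, and Serpina12, vaspin, had changes of -0.15 ± 0.13 and -0.13 ± 0.10.

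**Figure D2:**
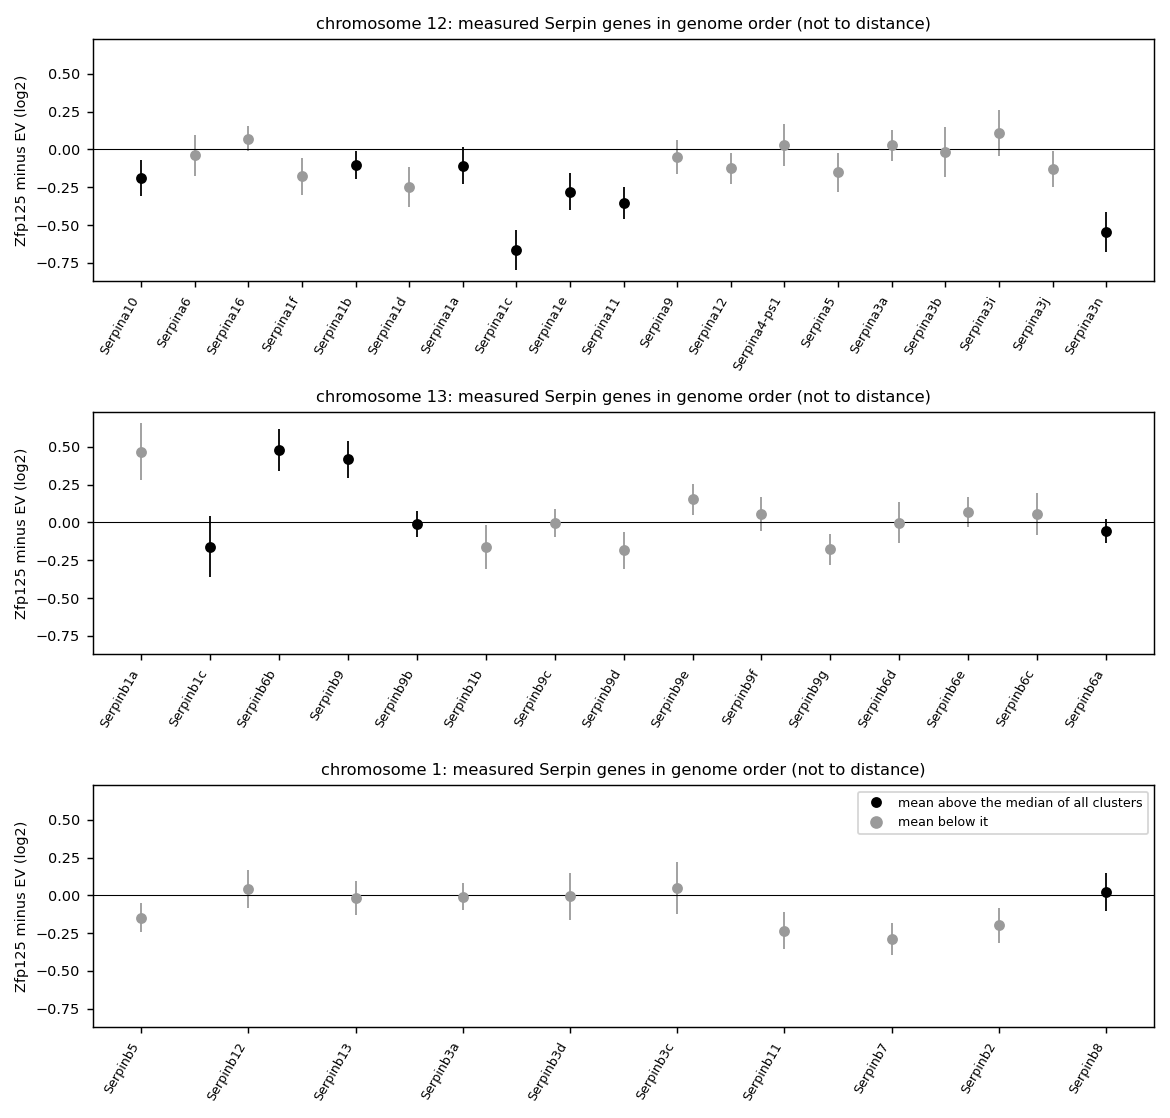
Change (vertical axis, Zfp125 minus EV on the log2 scale, bars are standard errors) of the measured serpin genes in their order along chromosomes 12, 13 and 1, black where the mean is above the median of all clusters and grey where it is below. On chromosome 12 the change is -0.67 for Serpina1c and between -0.11 and -0.28 for its neighbours Serpina1a and Serpina1e; on chromosome 13 Serpinb6b and Serpinb9 lie side by side at 0.48 and 0.42.

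In the RefSeq order, the measured clade A genes other than Serpina7, which is on chromosome X, run from Serpina10 to Serpina3n on chromosome 12, with 28 serpin genes and no other protein-coding gene between these ends. Serpina1c lies between Serpina1a and Serpina1e, and Serpina11 follows Serpina1e. The 2 clusters with the lowest changes of the clade, Serpina1c and Serpina3n, are not neighbours. Between them are 8 measured clade A genes below the median level, with changes from -0.15 to 0.11, beside Serpina1e and Serpina11.

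Clades C, D and F hold plasma inhibitors and their relative Serpinf1. All 4 clusters were above the median level and had changes below 0, that of Serpinf1 close to 0 at -0.03. Of all clusters above that level, 46.6% had a change below 0. Serpinf2, alpha-2 antiplasmin, which inactivates plasmin, had 7.40, 7.47, 7.37 and 7.43 in Zfp125 cells, against 7.94, 7.95, 8.04 and 8.34 in EV cells. The Zfp125 arrays lay close together, the EV arrays were more spread, and every Zfp125 array was well below every EV array. The change was -0.65 ± 0.10, a level 1.57-fold higher in EV cells (adjusted p = 0.0666 over all clusters and 0.00750 over genes, by limma). This was the smallest p of the 56 clusters.

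Serpinf1, pigment epithelium-derived factor, a secreted serpin that inhibits no protease, had 6.32, 6.32, 6.12 and 6.51 in Zfp125 cells, against 6.46, 6.43, 6.22 and 6.29 in EV cells. The groups overlapped, with a change of -0.03 ± 0.11 (adjusted p = 0.962). Serpinf1 and Serpinf2 are adjacent on chromosome 11 with no protein-coding gene between them. The within-array difference, Serpinf2 minus Serpinf1, averaged 1.10 ± 0.14 in Zfp125 cells and 1.72 ± 0.27 in EV cells, without overlap. Their promoter windows on the minus strand, printed because neighbours on 1 strand had unequal values, carry a capital at the annotated first transcribed base.
Serpinf2: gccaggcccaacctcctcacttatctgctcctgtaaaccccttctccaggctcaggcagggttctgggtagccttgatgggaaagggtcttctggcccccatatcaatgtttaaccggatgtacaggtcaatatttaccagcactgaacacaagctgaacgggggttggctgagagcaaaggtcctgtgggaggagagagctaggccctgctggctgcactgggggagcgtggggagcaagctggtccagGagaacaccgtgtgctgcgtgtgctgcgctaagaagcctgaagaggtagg
Serpinf1: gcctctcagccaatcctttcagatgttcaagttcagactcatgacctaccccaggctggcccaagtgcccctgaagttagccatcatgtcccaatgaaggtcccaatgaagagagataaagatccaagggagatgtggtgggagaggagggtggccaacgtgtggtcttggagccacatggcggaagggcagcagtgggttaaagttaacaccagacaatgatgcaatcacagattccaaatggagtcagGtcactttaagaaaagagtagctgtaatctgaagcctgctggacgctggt
The windows are at chr11:75439452-75439751 and chr11:75422574-75422873 in GRCm38.p6. None of the 3 motifs above is spelled in either.

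Serpind1, heparin cofactor II, an inhibitor of thrombin, had 6.71, 6.89, 6.82 and 7.15 in Zfp125 cells, against 7.32, 7.0003, 7.24 and 7.43 in EV cells. Replicate 4 of the Zfp125 cells lay above the lowest EV array, and the change was -0.36 ± 0.13 (adjusted p = 0.398). Serpinc1, antithrombin, the main plasma inhibitor of thrombin and factor Xa, had 4.60, 4.85, 4.71 and 5.48 in Zfp125 cells, against 5.31, 4.91, 5.33 and 5.20 in EV cells. Here replicate 4 of the Zfp125 cells was the highest of all 8 arrays, while the other 3 lay below every EV array. The change was -0.28 ± 0.19 (adjusted p = 0.714), -0.47 without that array and -0.17 without replicate 1 of the Zfp125 cells.

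The highest changes of the family were in clade B. Its 28 clusters had a median change of 0.00, and 7 were above the median level, 4 of them with changes below 0. At an unadjusted p under 0.05, 1 of the 28, Serpinb7, was lower, a share near the 4.52% of all clusters, and 3 were higher, against 4.91%. The 21 dimmer clusters had changes from -0.29 to 0.47. Whether clades A and B differ was not tested, since the members were chosen with results known.

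Serpinb9, the intracellular inhibitor of granzyme B, had 6.71, 6.72, 6.74 and 6.65 in Zfp125 cells, against 6.33, 6.24, 5.99 and 6.59 in EV cells. The Zfp125 arrays were close together and all above the EV arrays, the nearest by a narrow gap. The change was 0.42 ± 0.12 (adjusted p = 0.300). Its paralog and neighbour Serpinb9b had 6.79, 6.97, 6.78 and 6.81 in Zfp125 cells and 6.92, 6.79, 6.92 and 6.77 in EV cells in its brighter cluster. Those groups overlapped, with a change of -0.01 ± 0.09, and its second cluster had a change of -0.02 ± 0.13. The within-array difference, Serpinb9 minus Serpinb9b, averaged -0.13 ± 0.09 in Zfp125 cells and -0.56 ± 0.31 in EV cells, with overlap.

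Serpinb6b, a mouse paralog of the intracellular protease inhibitor Serpinb6a, had 6.76, 6.79, 6.53 and 6.42 in Zfp125 cells, against 6.51, 6.04, 5.95 and 6.07 in EV cells. Replicate 1 of the EV cells lay above the lowest Zfp125 array. The change of 0.48 ± 0.14 was the highest of the family (adjusted p = 0.305). Serpinb6a had 5.83, 5.91, 5.96 and 5.77 in Zfp125 cells, against 5.94, 5.98, 5.88 and 5.91 in EV cells, a change of -0.06 ± 0.08. Serpinb6b minus Serpinb6a averaged 0.75 ± 0.18 in Zfp125 cells and 0.21 ± 0.24 in EV cells, and the lowest Zfp125 and highest EV arrays nearly met, both at 0.564. A second cluster that carries Serpinb6a beside 1110046J04Rik was dim, with a change of 0.10.

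Other clade B members overlapped between groups. Serpinb1c had 3.91, 4.42, 4.57 and 4.78 in Zfp125 cells, against 4.97, 4.46, 4.60 and 4.29 in EV cells, the widest Zfp125 spread of the clade's brighter clusters. Serpinb1a, an inhibitor of neutrophil elastase and cathepsin G, was dim and averaged 3.64 ± 0.15 in Zfp125 cells and 3.17 ± 0.40 in EV cells (change 0.47 ± 0.19, adjusted p = 0.466). Serpinb7, among the dimmest members, averaged 2.11 ± 0.18 in Zfp125 cells and 2.40 ± 0.06 in EV cells (change -0.29 ± 0.10, adjusted p = 0.408). Serpinb8 had a change of 0.02 ± 0.13. On chromosome 1, where the clade runs from Serpinb5 to Serpinb8, the other 9 measured genes were below the median level, and the cluster annotated to Serpinb10 and Serpinb2 together had a change of 0.03.

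**Figure D3:**
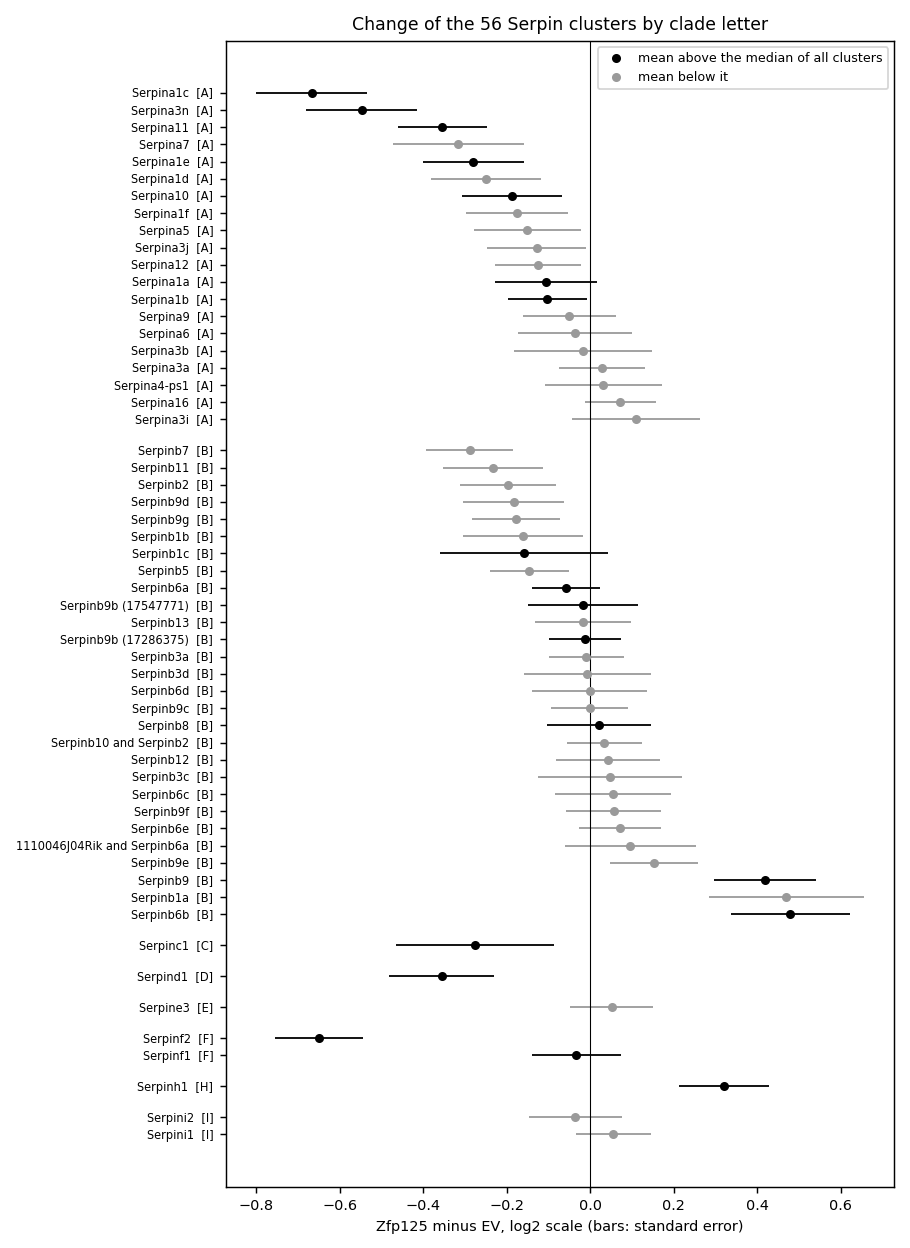
Change of all 56 serpin clusters (horizontal axis, Zfp125 minus EV on the log2 scale, bars are standard errors), grouped by clade letter and sorted within a clade, black where the mean is above the median of all clusters and grey below. Black points of clades A, C, D and F lie left of 0, from -0.67 to -0.03, and that of Serpinh1 lies right of it at 0.32.

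Serpinh1, Hsp47, the collagen chaperone of the endoplasmic reticulum and the 1 measured member of clade H, had 7.68, 7.82, 7.54 and 7.52 in Zfp125 cells, against 7.22, 7.50, 7.18 and 7.39 in EV cells. All Zfp125 arrays were above all EV arrays, by a narrow gap between replicate 4 of the Zfp125 cells and replicate 2 of the EV cells. The change was 0.32 ± 0.11 (adjusted p = 0.376). Serpine3 averaged 3.62 ± 0.14 in Zfp125 cells and 3.57 ± 0.11 in EV cells, and other clade E genes were not analysed here. The clade I genes, Serpini1, neuroserpin, and Serpini2, were among the dimmest, with means below 2.4 in each group and changes of 0.06 and -0.04.

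The proteases and partners of these inhibitors were read from lists, each with the brightest cluster of a gene. The background of the calls in every list is 0.123% lower and 0.0242% higher over all clusters. Over genes it is 0.636% lower and 0.446% higher. Of 13 coagulation and fibrinolysis proteases, 0 were called over all clusters, and over genes 2 were called lower and 1 higher, with a median change of -0.11. F2, prothrombin, the protease that Serpinc1 and Serpind1 inhibit, had 5.37, 5.25, 5.14 and 5.14 in Zfp125 cells, against 5.71, 5.71, 5.87 and 5.88 in EV cells. Its change was -0.57 ± 0.09 (adjusted p = 0.0666 over all clusters and 0.0101 over genes, by limma). Plg, plasminogen, whose active form Serpinf2 inhibits, had 5.67, 5.83, 5.64 and 5.85 in Zfp125 cells, against 6.19, 6.23, 6.44 and 6.44 in EV cells, a change of -0.58 ± 0.10 (0.0772 over all clusters and 0.0119 over genes). For both genes the groups were wide apart. Habp2, a serine protease of plasma, had a change of 0.43 ± 0.09 (0.0359 over genes).

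Among 20 cofactors, clearance receptors and heparan sulfate enzymes, 1 was called higher and 0 lower, with a median change of -0.03. It was Sorl1, a sorting receptor of the low-density lipoprotein receptor family, with 0.65 ± 0.09 (adjusted p = 0.0439). Among 16 cathepsins, caspases and related proteases, Ctsc, cathepsin C, which activates granule proteases of leukocytes, was lower by a change of -0.91 ± 0.11 (adjusted p = 0.0202), 0 were higher and the median was 0.04. Of 13 membrane and other serine proteases and convertases, Pcsk6, a proprotein convertase, was called lower with -0.72 ± 0.10 (adjusted p = 0.0335) and 0 were higher, with a median of 0.02. The 14 genes of leukocyte granules, all proteases apart from the peroxidase Mpo, held 0 calls in either fit, with a median change of -0.03. The smallest p was that of Mpo, at 0.19 ± 0.08, followed by Cpa3, a carboxypeptidase of mast cells, at -0.16 ± 0.10.

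Of 28 genes of other protease inhibitor families, 1 was called higher and 0 lower over all clusters, and 2 higher and 1 lower over genes. Aplp2, a relative of the amyloid precursor with a protease inhibitor domain, had 0.59 ± 0.09 (adjusted p = 0.0479). App, the amyloid precursor, had 0.49 ± 0.10 (0.0286 over genes), and Pzp, a broad plasma inhibitor of the alpha-2 macroglobulin family, -1.08 ± 0.18 (0.00570 over genes, 0.0772 over all clusters). The median of that list was -0.03. Among 23 collagens and folding partners of Serpinh1, 0 were called in either fit, with a median of 0.05; Col4a2 and Col4a5 had the smallest p, with 0.28 ± 0.08 and 0.45 ± 0.14. The 22 genes of secretion and quality control of alpha-1 antitrypsin held 0 calls in either fit and a median of -0.07, with the chaperone Hspa5 at -0.40 ± 0.09 and Sec24d, a coat protein of transport vesicles, at -0.37 ± 0.10. Across all clusters the median change was 0.00.

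Angiotensinogen, Agt, a serpin by fold whose symbol lacks the family name, had a change of 0.10 ± 0.13 (adjusted p = 0.864). Of 8 measured genes of its pathway 0 were called over all clusters and 1 lower over genes, Enpep, an aminopeptidase that trims angiotensin, at -0.46 ± 0.10 (0.0492); Ace, the angiotensin-converting enzyme, had 0.17 ± 0.10, and the list's median was 0.01. Of 23 regulators of liver serpin genes, 1 was called higher and 0 lower, Foxa1, a liver transcription factor, at 0.86 ± 0.12 (adjusted p = 0.0364). Epas1, a hypoxia factor, was lower over genes at -0.46 ± 0.10 (0.0492), Hnf4a had a change of -0.38 ± 0.08 (0.140 over all clusters), and the median was -0.09. With 1 array left out, Sorl1 and Pcsk6 missed the threshold whichever of the 8 it was (adjusted p = 0.0528 to 0.152 and 0.0575 to 0.0993). Aplp2 and Foxa1 passed it only without replicate 4 of the Zfp125 cells (0.0476 to 0.172 and 0.0366 to 0.119), and Ctsc only without that array or replicate 2 of the EV cells (0.0304 to 0.0844). With all arrays, median centring ended the calls of Sorl1 (0.0644) and Aplp2 (0.0650) and array weights that of Aplp2 (0.0517). Without variance moderation all 5 were lost, at 0.0822 to 0.124.

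**Figure D4:**
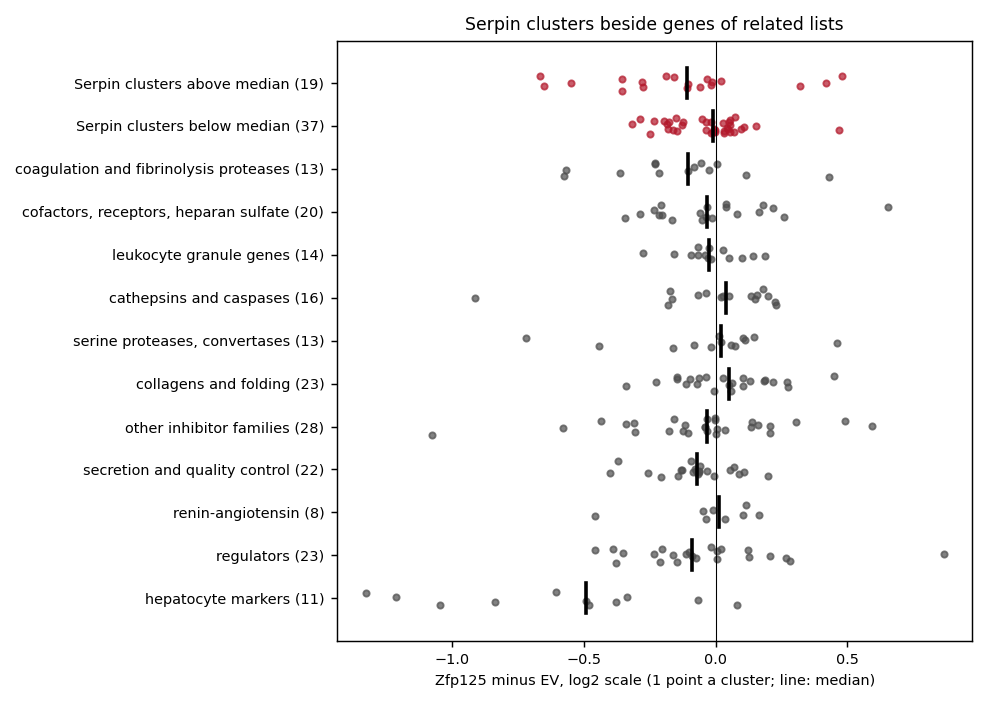
Change of each cluster (horizontal axis, Zfp125 minus EV on the log2 scale, 1 point a cluster, black line at the median) for serpin clusters above and below the median level (red) and for genes of related lists (grey), with the number of clusters in brackets. The hepatocyte markers have the lowest median, -0.49, and the brighter serpins one of -0.11.

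**Figure D5:**
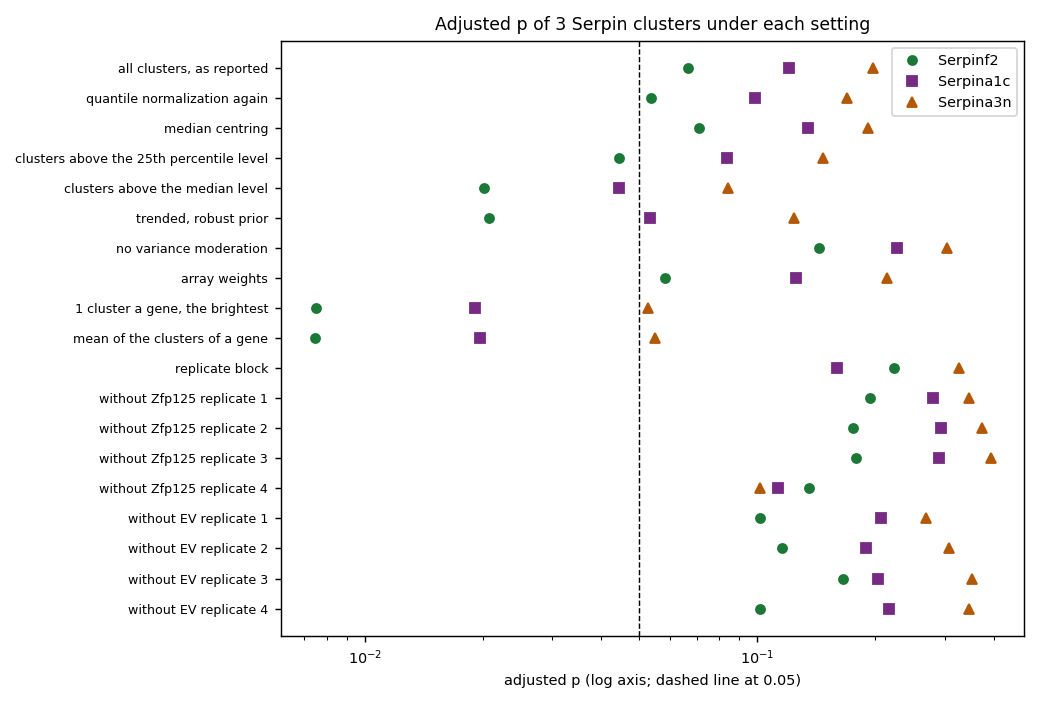
Adjusted p (horizontal log axis, dashed line at 0.05) of Serpinf2, Serpina1c and Serpina3n as reported and under 18 alternatives listed down the page. Serpinf2 is left of the line under 5 and Serpina1c under 3 alternatives, Serpina3n under none.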

How the data were processed

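The deposited values are log2 expression values, 1 per transcript cluster and array, which the authors made with Affymetrix Expression Console and Transcriptome Analysis Console, per the submitters' processing notes. The sources used here name no versions, background correction or normalization; the values themselves show the log2 scale. Array medians were 4.32 to 4.37, Pearson correlations between arrays 0.977 to 0.984, and no arrays were identical; no detection call was used, and the number of arrays limits precision.

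Clusters were named through the platform annotation (23521 with 1 symbol, 1814 with several, 16010 unnamed here), updated by Entrez identifier to the GRCm38.p6 RefSeq table for 23328. All 41345 clusters were fitted without normalizing again, using lmFit and eBayes of limma 3.58.1 (R 4.3.3) and Benjamini-Hochberg adjustment; the script was tested on simulated data. A gene-level fit took the brightest 1-symbol cluster of each of 22180 genes. Tests were two-sided.

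Members and lists were chosen with earlier results of these data known. Values are given on every array for the 12 largest changes among brighter members. The same holds for the brightest member of each clade and selected plasma serpins, both only where above the median level. Serpine3 and Serpini1, the brightest of clades E and I, were below it and are given in short. From each list come called genes or the 2 of smallest p. Genes called in the gene-level fit, Agt, Hnf4a, further clade A and B members and the within-array pairs were added after their values were seen. Promoters were to be those of called members; since none was called over all clusters, those of Serpinf2, Serpina1c and their neighbours are shown. Alternatives covered normalization, dim clusters, moderation, array weights, choice of clusters, the replicate block and omission of single arrays. Plots used matplotlib 3.10.9.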

Additional observations from a re-analysis of the deposited data

Results flagged for a closer look

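The brighter cluster of Serpinb9b (17286375) in replicate 2 of the Zfp125 cells, at 6.97, lay far from the other 3 arrays of its group, which ran from 6.78 to 6.81. Among genes of the lists, Pcsk6 in replicate 1 of the Zfp125 cells, at 5.83, lay apart from the other 3 at 6.13 to 6.14, and Aplp2 in replicate 4 of the Zfp125 cells, at 9.77, from the other 3 at 9.96 to 9.99. Col4a2 in replicate 1 of the Zfp125 cells was at 6.37, the other 3 at 6.27 to 6.29. In EV cells, Sec24d in replicate 3 was at 5.42, the other 3 at 5.71 to 5.72; Agt in replicate 4 was at 8.98, the other 3 at 8.58 to 8.62; and Epas1 in replicate 2 was at 5.62, the other 3 at 5.95 to 6.01. These are 7 of 110 groups of 4 values examined, of which chance flags about 1 in 20.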

How the results depend on the processing

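Calls in the family depend on which clusters are tested and, for Serpinf2, also on the prior. The count of serpin clusters called lower was 0 over all clusters, 1 among clusters above the 25th percentile level (Serpinf2, adjusted p = 0.0445) and with a trended, robust prior (Serpinf2, 0.0208), and 2 among clusters above the median level, with the brightest cluster of a gene and with the mean of its clusters (Serpinf2 and Serpina1c each time). It was 0 with quantile normalization again, median centring, array weights, no variance moderation, the replicate block and without any 1 array; none was called higher under any alternative. Settings with fewer clusters hold fewer tests and also estimate the prior again. Which of these changed the calls was not tested, nor was the cause for the prior, moderation and the block. The gene-level fit was not repeated without single arrays. All clusters called numbered 61, and 94, 232, 196, 4, 240 and 227 above the 25th percentile level, above the median level, with the trended prior, without moderation, with the brightest cluster and with the mean. Without 1 array there were 16 to 61, with 16, 17 and 20 without replicates 1, 2 and 3 of the Zfp125 cells and 39, 29 and 26 without replicates 1, 3 and 4 of the EV cells. With the replicate block, limma called 0 (3530 at an unadjusted p under 0.05, 6 lower and 3 higher among serpins). Same-numbered arrays correlated at -0.04 to 0.03 in their deviations from the group means. The labels give them only a shared number, and whether they share more cannot be told from these correlations. Of 958 recomputed changes of 34 serpin clusters and 21 list genes, 937 kept their sign. The reversed ones were small and came from leaving out 1 array, with ranges of -0.279 to 0.0108 for Serpinb1c, -0.0579 to 0.0104 and -0.0872 to 0.0714 for the brighter and dimmer cluster of Serpinb9b, -0.105 to 0.0869 for Serpinb8, -0.122 to 0.121 for Serpina3b, -0.0403 to 0.0743 for Serpina3a, -0.0362 to 0.175 for Serpina3i, -0.124 to 0.0902 for Serpina6, -0.0968 to 0.0334 for Serpinf1, -0.0103 to 0.21 for the cluster of 1110046J04Rik and Serpinb6a and -0.00784 to 0.0842 for that of Serpinb10 and Serpinb2. Serpinf2 ranged from -0.69 to -0.56 and Serpina1c from -0.76 to -0.58. Leaving out each array, chosen after seeing the data, gave 12 to 15 of 19 brighter serpin clusters below 0, lowest without replicate 3 of the Zfp125 cells or replicate 1 of the EV cells, and 7 of 7 in clade A. Values below the median level may sit near background, which limits changes there.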
